A study of Mus musculus with 6 samples.

Results

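Transcripts of 10 genes of the matrix metalloproteinase (MMP) system, 7 MMP genes and 3 genes for tissue inhibitors of metalloproteinases (TIMPs), were followed in the mouse mammary carcinoma line E0771. The genes, Mmp3, Mmp9, Mmp10, Mmp11, Mmp13, Mmp14, Mmp19, Timp1, Timp2 and Timp3, were picked by symbol among 55571 entries of the count table. RNA was sequenced from 3 libraries of cells made to express wild-type Malt1 (Malt1-WT), a paracaspase that acts upstream of NF-kB, and from 3 libraries of cells with the vector control, all at the basal condition. The question addressed is which of them change when Malt1 is raised above its level in the vector control cells, which also express the gene. The labels do not say what drives the transgene, whether a line is a clone or a pool, or whether replicates are separate cultures, so p-values measure the spread between these libraries, which may be technical.

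MMPs are zinc endopeptidases that cut collagens, laminins, proteoglycans and many cell-surface and secreted proteins. Most are secreted as inactive proenzymes, in which a cysteine of the propeptide blocks the catalytic zinc, and become active when plasmin, furin or another MMP removes the propeptide. TIMPs bind active MMPs in a tight complex of equal parts and stop them. In mammary tumours these enzymes and inhibitors are made by the carcinoma cells and by stromal and myeloid cells around them.

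Total counts ranged from 17601656 to 20543778 per library. Malt1 had 5526, 6176 and 5087 counts in Malt1-WT and 517, 633 and 611 in the vector control, in accord with the labels. The 7 epithelial markers summed to 64.2 to 69.8 CPM (counts scaled to a common library total) in Malt1-WT and 73.3 to 77.6 CPM in the vector control. Of the 2 tested, Krt8 was called lower (log2 fold change -0.20). It was at 59.7 ± 1.83 CPM in Malt1-WT and 68.6 ± 2.31 CPM in the vector control (SD, n = 3 each). Epcam, at 6.23 ± 1.01 CPM in Malt1-WT and 6.31 ± 0.319 CPM in the vector control, was not called. Krt19 and Cdh1 had at most 7 counts in any library. The fibroblast marker list summed to 383 to 408 CPM in Malt1-WT and 370 to 394 CPM in the vector control, with 1 of 6 tested members, Pdgfrb (log2 fold change 0.57), called higher and 3, Col1a1 (-0.88), Pdgfra (-0.48) and Acta2 (-0.18), called lower.

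Of the 7 MMP genes among the 10, transcripts of 5 rose at least 2-fold in Malt1-WT, Mmp19 was 4.29-fold lower, and the inhibitor with the most counts, Timp2, was 1.75-fold lower. The increases were 13.9-fold for Mmp10, 10.7-fold for Mmp13, 5.34-fold for Mmp9, 3.47-fold for Mmp3 and 2.31-fold for Mmp14. Mmp11 (1.16-fold lower) and Timp1 (1.12-fold higher) differed little, and Timp3 had 5 counts in all. Of the 10 genes, 9 passed the filter on low counts and all 9 were called by edgeR's quasi-likelihood test at a Benjamini-Hochberg adjusted p under 0.05, 6 higher and 3 lower. This rule called 61.2% of all 13594 tested genes, so being called does not set the 9 apart. A called increase of at least 2-fold was less frequent, at 8.35% of tested genes, and 5 of the 9 had one. A called decrease of at least 2-fold was found in 4.77% of tested genes and in 1 of the 9. The 10 genes were chosen with earlier results of these data known, so these shares are no test of the set. The 3 Malt1-WT libraries lay entirely above the 3 vector libraries in 5 of the 9, as in 32.4% of tested genes, and entirely below in 3, as in 32.0% of tested genes. The median log2 fold change was 1.21 for the 9 and close to 0 for all tested genes. In bulk RNA, fewer cells of a type and less RNA per cell cannot be told apart.

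**Figure D1:**
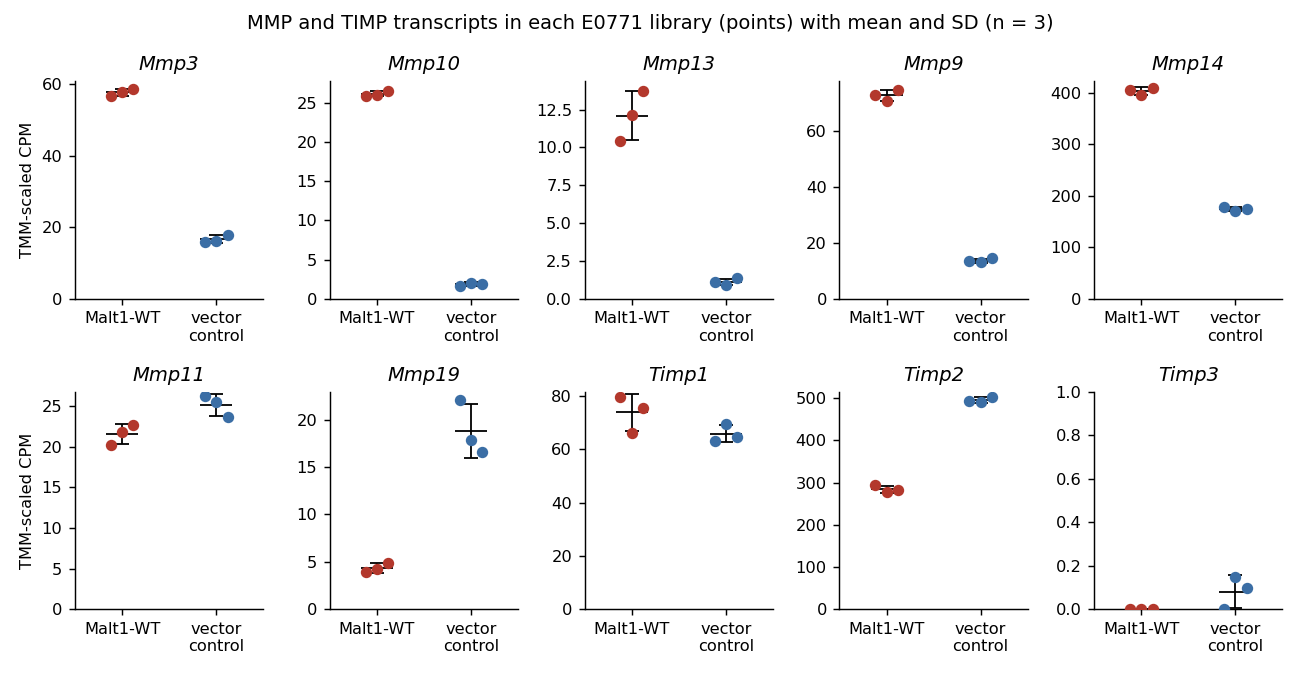
TMM-scaled CPM of the 10 genes in each library, Malt1-WT in red and vector control in blue, with the mean and SD (n = 3). The libraries of the 2 groups do not overlap for Mmp3, Mmp10, Mmp13, Mmp9, Mmp14, Mmp11, Mmp19 and Timp2, and overlap for Timp1.

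Mmp13, Mmp3 and Mmp10 lie in the MMP gene cluster of chromosome 9, and their promoters share short motifs. RefSeq promoter windows (GRCm38.p6), running from 250 bases before to 50 bases after the annotated start, were given for 8 of the 10 genes. Mmp9 and Mmp19 had no window and were not searched. Shown are the last 200 bases of the window for these 3 genes, for Mmp8 as a member of the same cluster whose transcript was not called, and for Mmp14 as a gene that rose from another chromosome. Sequences run 5′ to 3′ along the gene. Capitals mark matches to TGANTCA and to the TATA box letters TATAAA on either strand. TGANTCA, with any base at N, is used here for AP-1 (dimers of Fos and Jun proteins). No match of one motif overlaps the other.
Mmp13 (chr9:7272364-7272563, plus strand): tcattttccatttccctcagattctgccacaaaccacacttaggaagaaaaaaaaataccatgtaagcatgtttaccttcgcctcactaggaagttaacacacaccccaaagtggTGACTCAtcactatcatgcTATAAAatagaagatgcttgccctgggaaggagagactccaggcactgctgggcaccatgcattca
Mmp3 (chr9:7445672-7445871, plus strand): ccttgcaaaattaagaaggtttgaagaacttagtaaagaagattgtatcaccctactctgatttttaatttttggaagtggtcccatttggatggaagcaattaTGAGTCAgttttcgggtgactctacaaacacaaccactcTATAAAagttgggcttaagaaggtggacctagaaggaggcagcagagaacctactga
Mmp10 (chr9:7502192-7502391, plus strand): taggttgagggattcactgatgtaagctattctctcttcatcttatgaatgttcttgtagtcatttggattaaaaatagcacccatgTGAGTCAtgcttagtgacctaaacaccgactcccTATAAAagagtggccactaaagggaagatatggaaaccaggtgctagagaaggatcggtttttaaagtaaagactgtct
Mmp8 (chr9:7558279-7558478, plus strand): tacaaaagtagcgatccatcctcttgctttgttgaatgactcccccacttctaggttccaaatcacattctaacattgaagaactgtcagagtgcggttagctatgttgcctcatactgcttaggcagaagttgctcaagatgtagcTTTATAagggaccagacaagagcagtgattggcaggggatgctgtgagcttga
Mmp14 (chr14:54431448-54431647, plus strand): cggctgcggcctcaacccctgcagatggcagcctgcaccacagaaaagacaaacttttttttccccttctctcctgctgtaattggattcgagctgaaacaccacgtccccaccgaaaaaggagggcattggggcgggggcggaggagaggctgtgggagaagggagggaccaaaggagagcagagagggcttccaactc

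The AP-1 letters began 35 bases before the start of Mmp13, 46 before that of Mmp3 and 63 before that of Mmp10. Each of these promoters also held the TATA box letters downstream of the AP-1 match, beginning 16, 7 and 29 bases before the start in the same gene order. Among the 8 genes with a window, AP-1 matched in 3 and the TATA box in the same 3. The windows of Mmp14, Mmp11, Timp1, Timp2 and Timp3 held neither. In the table of 32851 promoter windows, 7.81% held TGANTCA anywhere and 2.73% held it within the 100 bases before the start, while 13.6% held TATAAA on either strand. In 1.99% of windows TATAAA began 40 to 21 bases before the start on the plus strand. Of the 3 genes, Mmp10 had its match there, and Mmp13 and Mmp3 had theirs nearer the start. These distances depend on the annotated starts. AGGAAG, the PEA3 form of the ETS motif, matched on either strand in 5 of the 8, Mmp3, Mmp13, Mmp14, Timp1 and Timp3, against 35.4% of all windows. The NF-kB consensus matched in 0 of the 8 and in 8.46% of all windows. Mmp9 was not among the 8, and sequence outside the windows was not searched. These matches describe the letters of short windows and not factor binding, which was not measured.

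The stromelysin genes Mmp3 and Mmp10 encode closely related secreted proteases of broad specificity that can also activate other proMMPs. Mmp3 was counted at 56.7, 57.7 and 58.7 CPM in the Malt1-WT libraries, against 15.9, 16.0 and 17.9 CPM in the vector control libraries. All 3 Malt1-WT libraries lay far above the vector libraries and close to one another. The log2 fold change was 1.80 (SE 0.066, edgeR adjusted p = 2.28e-29). Mmp10 was counted at 25.9, 26.1 and 26.6 CPM in Malt1-WT, against 1.66, 2.06 and 1.89 CPM in the vector control. Its Malt1-WT libraries again agreed closely, and the vector libraries rested on 30, 42 and 38 counts. Its log2 fold change of 3.80 (SE 0.124, edgeR adjusted p = 1.63e-31) was exceeded by 0.662% of tested genes.

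Mmp13 encodes collagenase-3, which cleaves fibrillar collagens and in rodents acts as a main interstitial collagenase. It was counted at 10.5, 12.1 and 13.7 CPM in Malt1-WT, against 1.10, 0.933 and 1.34 CPM in the vector control. The Malt1-WT libraries were more spread for Mmp13 than for Mmp3 or Mmp10, but the lowest of them was several times the highest vector library. The log2 fold change was 3.42 (SE 0.178, edgeR adjusted p = 5.58e-23), and 0.956% of tested genes had a larger one. The vector value rests on 20, 19 and 27 counts.

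Mmp9 encodes gelatinase B, which digests denatured collagen and type IV collagen of basement membranes. It lies on chromosome 2 (164940780 to 164955850, plus strand, GRCm38), away from the cluster. Values were 73.0, 70.7 and 74.7 CPM in Malt1-WT, against 13.4, 13.1 and 14.4 CPM in the vector control. The groups were well apart, with a log2 fold change of 2.42 (SE 0.065, edgeR adjusted p = 2.53e-35). Neutrophils and macrophages are known sources of this enzyme. The neutrophil marker genes Csf3r and Ngp and the macrophage marker Tyrobp had 0 counts in all 6 libraries, and Ptprc had 0 to 3 counts in a library. The 8 macrophage markers together were at 28.2 to 32.0 CPM in Malt1-WT and 22.0 to 25.9 CPM in the vector control. Of 5 tested members, 2 were called higher, Cd68 (log2 fold change 1.67) and Adgre1 (4.67). Another 2 were called lower, Lyz2 (-2.33) and Fcer1g (-0.28), and Csf1r (0.87) was not called. Adgre1 had 21, 32 and 28 counts in Malt1-WT and 2, 1 and 0 in the vector control. Lyz2 had 5, 19 and 17 counts in Malt1-WT and 72, 92 and 57 in the vector control. The 7 neutrophil markers together were at 12.2 to 14.6 CPM in Malt1-WT and 11.8 to 13.1 CPM in the vector control, almost all of it S100a8, the 1 tested member, which was not called. Camp of the same list, with too few counts for the filter, had 25, 10 and 15 counts in Malt1-WT and 1, 3 and 1 in the vector control. The part of these markers in the Mmp9 difference was not tested.

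Mmp14 encodes MT1-MMP, a protease anchored in the plasma membrane that cleaves collagen around the cell and activates proMMP2. It had the highest counts of the MMP genes, 406, 395 and 409 CPM in Malt1-WT, against 178, 171 and 175 CPM in the vector control. The increase was the smallest of the 5 in fold, with a log2 fold change of 1.21 (SE 0.032, edgeR adjusted p = 9.40e-36), and the largest in CPM. Mmp2, the gelatinase A gene whose product MT1-MMP activates, was at 94.6 ± 3.53 CPM in Malt1-WT and 56.7 ± 1.24 CPM in the vector control (SD, n = 3 each). Its log2 fold change was 0.74 (SE 0.046, edgeR adjusted p = 5.99e-20).

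Mmp19 and Mmp11 were the 2 MMP genes called lower. Mmp19, a secreted MMP expressed in many tissues, was counted at 3.92, 4.29 and 4.91 CPM in Malt1-WT, against 22.0, 17.8 and 16.6 CPM in the vector control. The groups were far apart, although the vector libraries were uneven. Its log2 fold change of -2.10 (SE 0.124, edgeR adjusted p = 1.15e-20) was among the lowest of the table, with 0.625% of tested genes below it. In the annotation, 22.3% of the Mmp19 exon length is shared with Tmem198b on the opposite strand. Tmem198b was at 12.3 ± 0.830 CPM in Malt1-WT and 13.5 ± 1.41 CPM in the vector control and was not called (edgeR adjusted p = 0.278).

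Mmp11 encodes stromelysin-3, an MMP that furin activates inside the cell. It was at 20.2, 21.9 and 22.7 CPM in Malt1-WT, against 26.3, 25.5 and 23.7 CPM in the vector control. The groups did not overlap, as in 64.4% of tested genes, but the gap was small. The log2 fold change was -0.22 (SE 0.076, edgeR adjusted p = 0.0114), and the call was lost without Malt1-WT replicate 1 (log2 fold change -0.18, adjusted p = 0.0611). Over all alternative settings the adjusted p of Mmp11 went from 0.000751 to 0.0611. Chchd10 on the opposite strand shares 5.58% of the Mmp11 exon length and was higher in Malt1-WT (log2 fold change 1.42).

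Among the inhibitors, Timp2 fell and Timp1 differed little. TIMP-2 inhibits MMPs broadly and, bound to MT1-MMP, also serves as the receptor that presents proMMP2 for activation. Timp2 was counted at 293, 277 and 282 CPM in Malt1-WT, against 493, 491 and 503 CPM in the vector control. Every Malt1-WT library lay well below every vector library, with a log2 fold change of -0.80 (SE 0.030, edgeR adjusted p = 3.76e-29). Timp1 was at 79.5, 66.1 and 75.4 CPM in Malt1-WT, against 63.2, 69.2 and 64.6 CPM in the vector control, and the groups overlapped. It was called higher (log2 fold change 0.16, SE 0.053, edgeR adjusted p = 0.00647), but this call was lost without Malt1-WT replicate 1 (0.10, adjusted p = 0.128) and with scaling by library size only (0.09, adjusted p = 0.149), with an adjusted p down to 0.000129 under other settings. Timp3, whose protein stays bound to the matrix, had 0, 0 and 0 counts in Malt1-WT and 0, 3 and 2 in the vector control. The filter on low counts left it out, and without the filter it was not called (edgeR adjusted p = 0.175). These 5 counts cannot be assigned with certainty, since 21.3% of the Timp3 exon length is shared with Syn3 on the opposite strand. The remaining family gene, Timp4, had 1, 1 and 0 counts in Malt1-WT and 8, 1 and 7 in the vector control and was not tested.

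Levels of different genes were compared per length, as CPM per kb of annotated exon. In Malt1-WT the order was Timp1 (83.0), Timp2 (72.9), Mmp14 (67.6), Mmp3 (32.0), Mmp9 (20.6), Mmp10 (15.2), Mmp11 (7.78), Mmp13 (4.53) and Mmp19 (1.24), with Timp1 and Timp2 overlapping between libraries and no other neighbours doing so. In the vector control the order was Timp2 (127), Timp1 (73.9), Mmp14 (29.3), Mmp3 (9.21), Mmp11 (9.06), Mmp19 (5.32), Mmp9 (3.85), Mmp10 (1.09) and Mmp13 (0.421), where only Mmp3 and Mmp11 overlapped. Both orders had Mmp14 as the highest of the 7 MMP genes and Mmp3 next, in the vector control without a gap to Mmp11. Mmp9 and Mmp10 stood above Mmp11 and Mmp19 in Malt1-WT and below them in the vector control.

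Summed per length over all 23 MMP genes of the table, the level was 181, 179 and 184 CPM per kb in Malt1-WT, against 78.5, 75.8 and 77.4 in the vector control. The 4 TIMP genes summed to 165, 146 and 157 CPM per kb in Malt1-WT, against 198, 204 and 202 in the vector control. The MMP sum thus stood above the TIMP sum in each Malt1-WT library and below it in each vector library, with ratios of 1.17 ± 0.0678 in Malt1-WT and 0.384 ± 0.0127 in the vector control (SD, n = 3 each). These are ratios of transcripts, not of proteins, and depend on the annotated exon lengths.

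**Figure D2:**
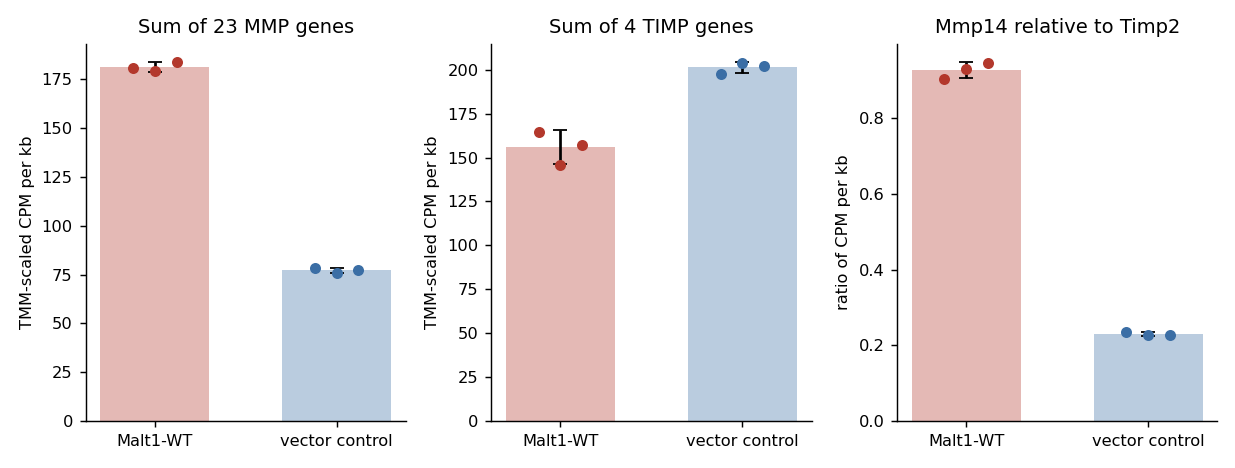
Bars give the mean over 3 libraries with SD, and points give single libraries, for the sum of the MMP genes, the sum of the TIMP genes (both in TMM-scaled CPM per kb) and the ratio of Mmp14 to Timp2. The MMP sum was 181 in Malt1-WT and 77.2 in the vector control, the TIMP sum 156 in Malt1-WT and 201 in the vector control.

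For the pair that forms the proMMP2-activating complex, Mmp14 relative to Timp2 was 0.904, 0.931 and 0.948 per length in Malt1-WT, against 0.236, 0.227 and 0.227 in the vector control, a 4.03-fold difference in the mean ratio. Mmp9 relative to Timp1, whose product binds proMMP9, was 0.249 ± 0.0190 in Malt1-WT and 0.0522 ± 0.00444 in the vector control (SD, n = 3 each). Mmp14 made up a like share of the MMP sum in both groups, 37.3% ± 0.372 in Malt1-WT and 37.9% ± 0.179 in the vector control. Mmp3, Mmp10 and Mmp13 together made up 28.6% ± 0.556 in Malt1-WT and 13.9% ± 0.945 in the vector control. No test was made of these sums and ratios, since 3 libraries against 3 allow no exact permutation p under 0.10.

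Of all 23 MMP genes, 13 were tested, and 10 of them were higher, 2 lower and 1 not called, with a median log2 fold change of 1.28. Over all tested genes 31.0% were called higher and 30.2% lower, a near-even split that was 3528 higher and 5006 lower when libraries were scaled by size only. Beyond those above, Mmp12, the macrophage elastase gene, had 85, 57 and 64 counts in Malt1-WT, against 10, 9 and 20 in the vector control (log2 fold change 2.49, SE 0.290, edgeR adjusted p = 1.51e-10). Mmp1a, one of the mouse collagenase genes and listed in the annotation as a polymorphic pseudogene, had 23, 45 and 40 counts in Malt1-WT, against 7, 9 and 13 in the vector control (log2 fold change 1.97, edgeR adjusted p = 4.97e-06). Its near copy Mmp1b was not tested, with 13, 10 and 17 counts in Malt1-WT and 6, 4 and 4 in the vector control. Reads of this pair can be shared, and Mmp1b and Mmp12 overlap on opposite strands. Mmp23 (log2 fold change 1.28, edgeR adjusted p = 0.0136) and Mmp28 (0.42, adjusted p = 0.0354) rested on few or uneven counts. Mmp23 had 16, 19 and 20 counts in Malt1-WT and 1, 8 and 15 in the vector control, and lost its call when vector control replicate 1 (0.80, adjusted p = 0.136) or Malt1-WT replicate 3 (1.16, adjusted p = 0.0585) was left out. Without vector control replicate 3 it was 2.07, and its adjusted p over the libraries left out went from 0.00178 to 0.136. Mmp28 had 101, 110 and 91 counts in Malt1-WT and 54, 72 and 115 in the vector control, and was not called by DESeq2 (adjusted p = 0.0951), by library size only (0.0855), or when any single library except vector control replicate 3 was left out. Its log2 fold change was 0.24 without vector control replicate 1 and 0.74 without vector control replicate 3, and its adjusted p over these settings went from 0.000695 to 0.258. The membrane-type gene Mmp24 had 8, 13 and 8 counts in Malt1-WT and 2, 4 and 4 in the vector control and was not tested.

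Along chromosome 9, the cluster holds 10 MMP genes between Mmp13 (7272514 to 7283331, plus strand) and Mmp7 (7692090 to 7699585, plus strand, GRCm38). Of these, 6 were tested, and 5 of them, Mmp13, Mmp12, Mmp3, Mmp1a and Mmp10, were higher. The remaining tested gene was Mmp8, the neutrophil collagenase gene, with 16, 11 and 10 counts in Malt1-WT and 13, 25 and 14 in the vector control (log2 fold change -0.39, SE 0.398, edgeR adjusted p = 0.410). Mmp27, Mmp20 and Mmp7 at the far end had no count in any library. Within 300 kb on either side, 4 of 6 neighbouring genes were called higher and 2 were not called, where 61.2% of all tested genes were called and 31.0% were called higher. Birc3, an inhibitor-of-apoptosis gene, had a log2 fold change of 2.62, while Birc2 (0.51), Tmem123 (0.38) and Dcun1d5 (0.33) changed less and Yap1 (-0.02) and Dync2h1 (0.11) were not called. TGANTCA was found within 100 bases before the start in 8 of the 10 cluster genes and not in Mmp8 or Mmp27. Mmp7 and Mmp20, without counts, carried it as well, Mmp20 as TGAATCA where the others held TGAGTCA or TGACTCA. In Mmp12 it lay in the window at 7347124 to 7347423 and not in that at 7344147 to 7344446. In Mmp7 it lay in the window at 7691840 to 7692139 and not in that at 7692091 to 7692390.

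**Figure D3:**
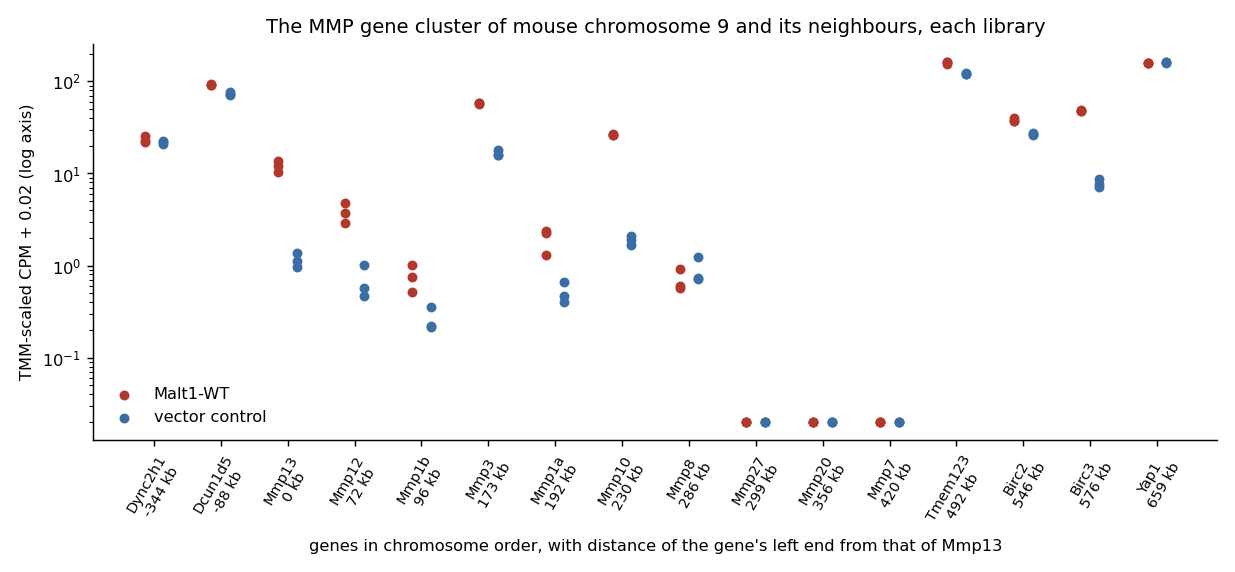
TMM-scaled CPM plus an offset of 0.02 (log axis) in each library for the MMP genes of the chromosome 9 cluster and their neighbours, in chromosome order with the distance in kb from Mmp13. Malt1-WT (red) lies above the vector control (blue) from Mmp13 to Mmp10, the groups mix at Mmp8, and Mmp27, Mmp20 and Mmp7 sit at the offset.

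In the list of proMMP activation, which also holds inhibitors of the activating proteases, 6 of 10 tested genes were higher, 3 lower and 1 not called, with a median log2 fold change of 0.69, where 31.0% of all tested genes were called higher and 30.2% lower. The largest changes were in the plasminogen activator system, which makes plasmin from plasminogen. Plau, the urokinase gene, was at 68.2 ± 3.95 CPM in Malt1-WT and 6.53 ± 0.570 CPM in the vector control (SD, n = 3 each), a log2 fold change of 3.38. Plat, the tissue plasminogen activator gene, rose by 3.22 on the log2 scale and Plaur, the urokinase receptor gene, by 2.09. St14, which encodes the membrane serine protease matriptase, rose by 1.16 and Furin, the convertase gene, by 0.90 on the log2 scale. The 3 lower genes were Pcsk7 (-0.24), a convertase, and the lysosomal cathepsins Ctsl (-0.18) and Ctsb (-0.14), and Hpn (0.08) was not called. Plg, the plasminogen gene, had no count in any library. For Plau, Plat and Plaur the edgeR adjusted p was 4.44e-37 or less.

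In the list of docking, clearance and other inhibitor genes, 6 of 11 tested were higher, 3 lower and 2 not called (median log2 fold change 0.32), against 31.0% higher and 30.2% lower over all tested genes. Itgb3, the integrin beta chain that pairs with the alpha chain Itgav, rose by 3.45 on the log2 scale. Lcn2, whose product lipocalin-2 binds MMP-9 in humans, rose by 1.61 and Cd44, a hyaluronan receptor that docks MMPs at the cell surface, by 1.02. Cav1, which encodes the caveolae protein caveolin-1, had a log2 fold change of -1.43. The edgeR adjusted p of these 4 was 4.58e-36 or less. Reck, an MMP inhibitor gene, was also higher (log2 fold change 1.28, edgeR adjusted p = 0.00204), as were Itgav (0.89) and Bsg (0.32). Reck had 24, 30 and 24 counts in Malt1-WT and 9, 16 and 9 in the vector control. The other lower genes were Lrp1 (-0.60), an endocytic receptor that clears MMP-9 and TIMP complexes, and the tetraspanin Cd151 (-0.13). For Cd151 the groups overlapped, at 65.9, 65.3 and 66.6 CPM in Malt1-WT and 66.2, 77.6 and 72.6 CPM in the vector control. Its edgeR adjusted p was 0.0190. The list had 2 genes called lower with DESeq2, 4 with library size only, and 2 to 3 when 1 library was left out. Cd63 (0.01) and Tspan14 (-0.01) were not called.

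Of 16 tested genes for factors known to bind MMP promoters, 13 were higher and 3 lower (median log2 fold change 0.90), beside 31.0% higher and 30.2% lower among all tested genes. The AP-1 subunit genes Fos (2.81), Fosb (1.71), Junb (1.40) and Fosl1 (1.31) had the largest log2 fold changes of the list, with edgeR adjusted p-values of 4.50e-10 or less. Also higher were the NF-kB subunit genes Nfkb1 (1.15) and Rela (0.90). So were Jun (1.05), Cebpb (0.95), Runx1 (0.90), Ets2 (0.88), Ets1 (0.83), Etv4 (0.41) and Fosl2 (0.20). Cebpb rested on uneven libraries, at 234, 138 and 141 CPM in Malt1-WT and 84.0, 92.4 and 88.5 CPM in the vector control. Its edgeR adjusted p was 0.0354. The list had 12 genes called higher without the filter and with the replicate block, and 12 to 13 when 1 library was left out. The 3 lower genes were Runx2 (-1.08), which drives Mmp13 in bone, Etv5 (-0.63) and Sp1 (-0.11). Fos was at 18.4 ± 0.351 CPM in Malt1-WT and 2.62 ± 0.492 CPM in the vector control (SD, n = 3 each).

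Of the matrix substrate genes, 1 of 15 tested was higher, 12 were lower and 2 were not called (median log2 fold change -0.35), compared with 31.0% higher and 30.2% lower in the whole table. Sparc, a collagen-binding matricellular protein gene, was at 146 ± 2.94 CPM in Malt1-WT and 586 ± 4.80 CPM in the vector control (SD, n = 3 each), a log2 fold change of -2.01. Vcan, the proteoglycan versican, had a log2 fold change of -1.18 and Col1a1, a chain of type I collagen, one of -0.88. The single higher gene was Tnc (2.01), which encodes tenascin C. The edgeR adjusted p of these 4 was 2.77e-11 or less. The proteoglycan genes Bgn (-0.18) and Dcn (-0.09) were not called.

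**Figure D4:**
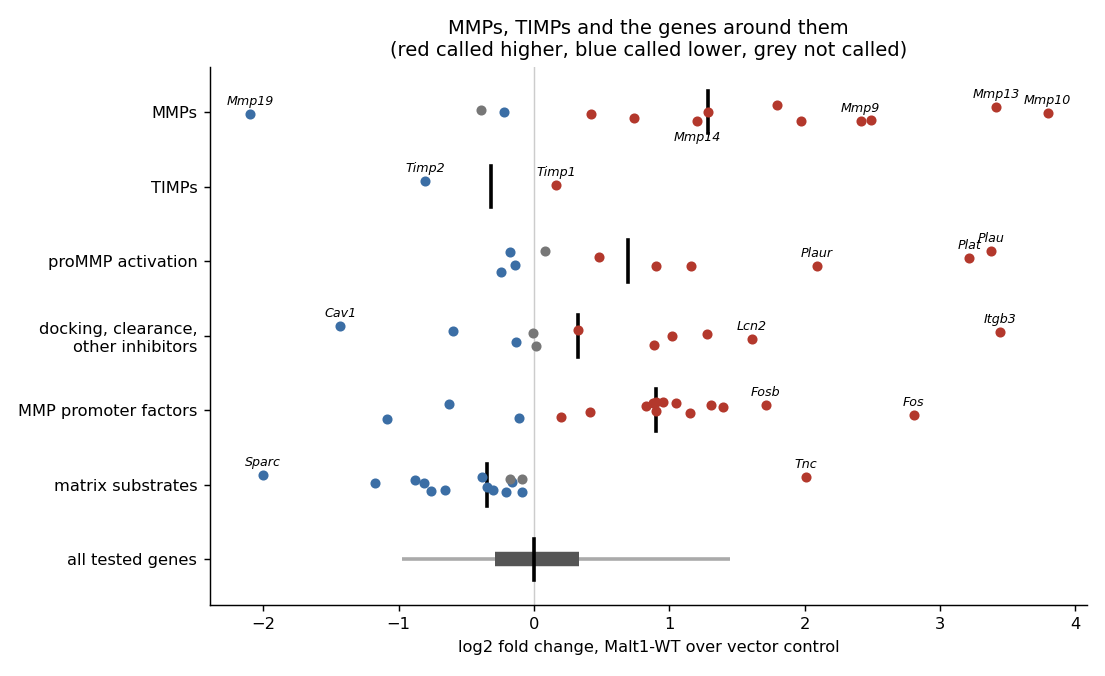
Log2 fold change, Malt1-WT over vector control, of each tested gene in the MMP and TIMP families and in the lists around them (points; red called higher, blue called lower, grey not called; vertical bars are list medians). The bottom row gives all tested genes with the range from the 5th to the 95th percentile (thin) and the quartiles (thick); Mmp10, Mmp13, Plau, Plat and Itgb3 lie beyond a log2 fold change of 3.

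In the authors' deposited table, 5 of the 10 genes had an adjusted p under 0.05, with log2 fold changes of 3.78 for Mmp10, 3.39 for Mmp13, 2.40 for Mmp9, 1.78 for Mmp3 and 1.19 for Mmp14. For Mmp19, the authors' deposited table gives -2.10 with an adjusted p of 0.0613. It gives an adjusted p of 1 for Mmp11, Timp1, Timp2 and Timp3. In the authors' deposited table, genes whose log2 fold change lies between -1 and 1 all have a t statistic of 0, so its p-values do not ask whether a change differs from none.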

How the data were processed

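The authors deposited raw counts per gene symbol, 1 column a library, per the file headers. The submitters' processing notes name the build GRCm38.p6 (mm10) and the tools STAR 2.7.3a, featureCounts 1.6.3 and Trim Galore 0.6.0. The sources used here do not give the annotation or strand mode of the counting, so overlapping genes on opposite strands cannot be told apart with certainty. Per the file headers, the table also holds the authors' log2 fold change, mean log2 expression, t score, p-value and adjusted p-value.

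The quasi-likelihood F test of edgeR 4.0.16 (R 4.3.3, robust option) compared Malt1-WT with vector control, with group as the single term, after filterByExpr (minimum count 10, 13594 genes left) and TMM scaling (factors 0.973 to 1.03). P-values were Benjamini-Hochberg adjusted over all tested genes and called under 0.05. The SE is the log2 fold change divided by the square root of F. CPM are TMM-scaled, and CPM per kb divide by the union of exons in GENCODE M21 (GRCm38), which may not be the annotation used for counting. Counts were simulated with 47 to 50 tested genes changed at each fold, among 13388 genes tested. Recovered were 100% of 4-fold, 85.1% of 2-fold, 69.4% of 1.5-fold and 56% of 1.2-fold changes, with 4 false calls. In the data 8320 genes were called, far more than were changed in the simulation, so these rates do not carry over to the data. Replicates were distinct libraries (chi-square per degree of freedom 2.13 to 2.87 within groups, against 96.4 to 107 between them).

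Named are the 10 genes, Malt1, the other MMP and TIMP genes averaging at least 1 count per library, and the 4 largest called, non-overlapping changes of each list at a mean log2 CPM of at least 1. Some genes of the lists are not reported here and were left out of the lists' counts and medians. Further named genes were chosen after their values were seen, as was the chromosome 9 window. Genes and lists were chosen with earlier results of these data known. Alternatives were other scalings, no filter, DESeq2 1.42.0, a replicate block and leaving out each library.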

Additional observations from a re-analysis of the deposited data

How the results depend on the processing

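The 9 tested genes of the 10 kept their direction under all 12 alternatives, and 105 of 108 values kept their side of the threshold. The exceptions were Timp1 with library size only (log2 fold change 0.0868, adjusted p = 0.149), which left 1 TIMP gene called and 0 called higher, and Timp1 and Mmp11 without Malt1-WT replicate 1. Leaving out 1 library gave -0.26 to -0.18 for Mmp11 and 0.10 to 0.23 for Timp1. It gave 1 to 2 MMP genes called lower, 1 to 2 TIMP genes called and 0 to 1 TIMP genes called higher. The cause was not tested. Outside the 10, 23 named genes were compared in the same way. They were Malt1, the other tested MMP genes and the largest changes of the activation, docking, promoter factor and substrate lists. Of their 276 values, 267 kept direction and call. The further named genes, Cebpb and Cd151 among them, were not compared gene by gene. The replicate numbers did not pair the libraries (same-number correlations of deviations from -0.0261 to 0.0174). A fit with the replicate block called 8168 genes in place of 8320 and 9 of the 9 tested genes of the 10, with 12 genes called in the whole MMP family and 2 in the TIMP family, as without it. DESeq2 called 7632. Fold changes of Mmp10 and Mmp13 rest on few vector counts, and Timp3 has 5 counts in all.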
